A study of Mus musculus with 105 samples.

Results

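Mitochondrial ribosomal protein genes were taken as the genes named Mrpl or Mrps, then a number and at most 1 letter, in the deposited tables of mouse oocytes. This gave 78 of 20756 genes, 49 named Mrpl and 29 named Mrps. All 78 were listed in both tables of expression values (FPKM, read density scaled for transcript length and library size), and 77 of them, without Mrpl53, in the table of poly(A) tail lengths. Grouped by the subunit in which their names or structures place them, 51 encode proteins of the large subunit (30 with a bacterial homologue and 21 found only in mitochondrial ribosomes) and 27 proteins of the small subunit (16 and 11). Mrps30 and Mrps18a are counted with the large subunit, where structures place them, and Mrps36, now assigned to the 2-oxoglutarate dehydrogenase complex, with the small subunit by its name. Mrps18a and Mrps18b are counted without a bacterial homologue by their place in the ribosome, although their paralog Mrps18c is counted with one.

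Mitochondrial ribosomes translate the few mRNAs of the mitochondrial genome, which encode subunits of the respiratory chain. All of their proteins are encoded in the nucleus, translated in the cytosol and imported. Oocytes hold a large store of mitochondria, and their nucleus is transcriptionally silent from the end of growth until after fertilisation. Levels of such nuclear mRNAs therefore change mainly through degradation, while their tails and their translation can change too. Btg4 is an adapter that brings the CCR4-NOT deadenylase to maternal mRNAs during meiotic maturation.

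Footprints are fragments of mRNA protected by ribosomes, so these values report cytosolic ribosomes on the members' mRNAs. Footprints were measured in 18 wild-type full-grown oocytes (FGO) and 20 wild-type metaphase II (MII) oocytes, each sequenced singly. MII oocytes of females heterozygous (Het) or knockout (KO) for Btg4 gave 3 and 3 footprint libraries and 2 and 2 mRNA libraries, and the mRNA libraries (Smart-seq2) were primed on poly(A). Tail lengths came from 1 library each of wild-type FGO, wild-type MII and Btg4 Het MII, and from 2 of Btg4 KO MII. The protocol gives C57BL/6 females of 8 or 5 weeks, injected with PMSG and hCG at 5 IU each. How many oocytes were pooled per Btg4 library, how the allele was made and which animals gave which oocyte are not stated in the labels used here. Only the FGO of the tail library carry the label SN, and whether they are the same kind of FGO as those with footprints is not stated.

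In the libraries labelled KO, Btg4 itself was at 1754.45 and 2344.88 FPKM in mRNA against 3292.53 and 4774.39 in Het, and at 906.665 to 1148.1 against 6134.1 to 7008.73 in footprints. All 12 oocyte markers had a mean of at least 1 FPKM in FGO and in the Btg4 groups, and 11 of 12 in MII. Of 15 follicle cell markers 3 to 8 reached that mean in a group. Their summed level was 240 to 419 FPKM in Het footprints and 412 to 560 in KO footprints, and 358 to 442 in Het mRNA and 268 to 310 in KO mRNA. Its part in the results was not tested. Of the single oocytes, 9 of the 18 FGO and 1 of the 20 MII listed a hemoglobin gene. In bulk libraries, fewer cells of a type and less RNA per cell cannot be told apart.

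Promoters are shown for the 4 members that rose in both assays of the Btg4 comparison and for Mrpl3, which stood out in single oocytes. Each is the sequence before the start of the gene from RefSeq (build GRCm38.p6), written 5′ to 3′ on the strand of the gene. Capitals mark the palindrome bound by the factor NRF1, present in Mrpl39, Mrpl32 and Mrpl9, and CCGGAAG, the core of ETS family sites, present in Mrpl3. The Mrps31 sequence holds neither.
Mrps31, chr8:22411240-22411339, plus strand: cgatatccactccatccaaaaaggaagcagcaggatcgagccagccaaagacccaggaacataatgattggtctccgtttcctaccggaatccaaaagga
Mrpl39, chr16:84735245-84735379, minus strand: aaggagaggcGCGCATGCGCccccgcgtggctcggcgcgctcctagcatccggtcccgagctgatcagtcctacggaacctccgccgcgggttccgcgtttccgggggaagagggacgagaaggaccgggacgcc
Mrpl32, chr13:14613038-14613137, minus strand: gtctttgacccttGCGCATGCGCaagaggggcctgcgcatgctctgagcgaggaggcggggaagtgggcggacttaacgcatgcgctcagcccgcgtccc
Mrpl9, chr3:94443236-94443335, plus strand: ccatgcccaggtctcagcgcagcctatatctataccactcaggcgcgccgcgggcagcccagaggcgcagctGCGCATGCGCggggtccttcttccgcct
Mrpl3, chr9:105053168-105053267, plus strand: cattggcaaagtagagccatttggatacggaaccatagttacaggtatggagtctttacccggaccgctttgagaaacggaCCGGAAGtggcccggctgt
Promoters were listed for 69 of the 78 members. In the 250 bases before the start and on either strand, the NRF1 palindrome occurred in 3 of these 69 (4.35%) and in 0.877% of 27025 genes. The 3 were Mrpl9, Mrpl32 and Mrpl39, which are also 3 of the 4 members whose footprints rose. This was noticed after both were known and was not tested. CCGGAAG occurred in 18 members (26.1%) and in 7.83% of all genes, and AAGATGGC, a site of YY1, in 4 members (5.80%) and in 1.83%. At least 1 of the 3 motifs occurred in 24 members (34.8%) and in 10.1% of all genes. A match of letters does not show that a factor binds. The members' median GC content in this window was 58.4%, against 52.0% over all genes.

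The members' combined level moved with stage and with genotype. Summed over the 78 members, footprints made up a median of 0.690% of all FPKM in FGO (0.473% to 1.05%) and 0.184% in MII oocytes (0.0943% to 0.558%). MII oocytes 2 and 4, at 0.355% and 0.558%, stood above the others, and without them no MII oocyte exceeded 0.266%, below every FGO. In MII oocytes of Btg4 females the sum was 0.208%, 0.220% and 0.189% of footprints in Het and 0.307%, 0.273% and 0.255% in KO. In mRNA it was 0.330% and 0.433% in Het and 0.760% and 0.976% in KO. Every KO library lay above every Het library in both assays. In footprints this was not a shift of the whole family. The members' median log2 footprint change was 0.31, against 0.27 over all genes tested, with 41 members higher and 27 lower. Among the largest rises of a mean in FPKM, Mrpl32, Mrps14, Mrps31 and Mrpl39 had mean footprints of 21.0, 453, 1.77 and 6.00 FPKM in Het. In KO these were 149, 574, 110 and 98.6 FPKM. For Mrps14 the genotypes overlapped, and its log2 change was 0.44 ± 0.53 (SE, adjusted p = 0.695 with limma). All these levels are shares of a library and not amounts per oocyte.

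**Figure D1:**
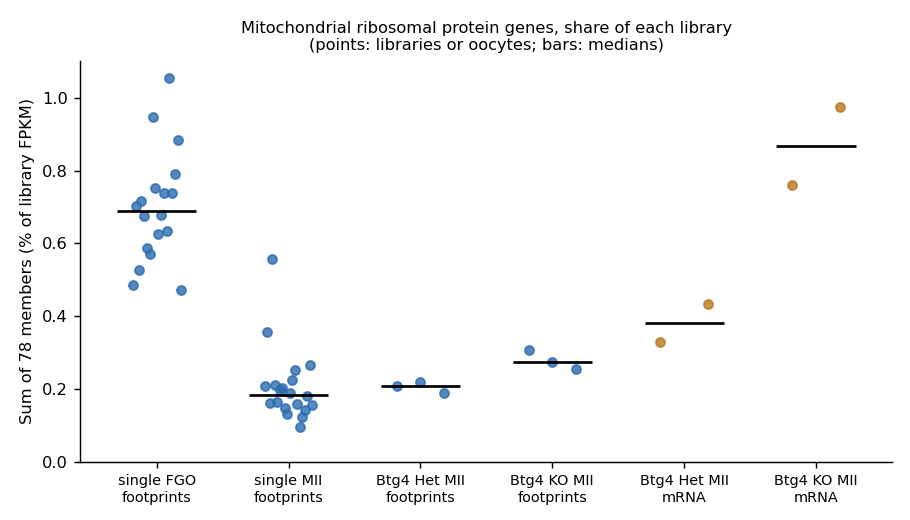
Share of each library's summed FPKM (y axis, %) taken by the 78 members, for each single oocyte or library (points) in the 6 groups, with the median of each group as a bar. FGO lie between 0.473% and 1.05%, most MII oocytes below 0.266%, and KO mRNA above Het mRNA.

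The first comparison asked how the members' mRNA differed between Btg4 KO and Het MII oocytes. In mRNA 39 of 73 members tested rose in KO and 0 fell, where 18.9% of the 8865 genes tested rose and 0.62% fell (limma on log2(FPKM + 1), adjusted p below 0.05 over all genes). The members' median log2 change was 1.30, against 0.14 over all genes tested. Both KO libraries were above both Het libraries for 59 members, and for 38.9% of all genes, and both were below for 3 members, and for 22% of all genes. Mrpl17, Mrpl19, Mrpl41, Mrpl43 and Mrps34 had a mean under 1 FPKM and were not tested. With 2 libraries a group the p-values capture no more than the spread among these libraries, and that may be technical. These libraries were primed on poly(A), and no member has a tail value in Het. More mRNA and better priming of longer tails therefore cannot be told apart here, and this was not tested.

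Among large subunit proteins with a bacterial homologue 14 of 28 tested rose (median log2 change 1.08). Mrpl33, a small protein of the large subunit, was at 1.81 and 0.722 FPKM in Het and at 22.0 and 31.8 in KO. Its log2 change was 3.64 ± 0.40 (SE, adjusted p = 0.00094). Mrpl14, which lies at the face between the subunits, was at 7.00 and 14.1 FPKM in Het and 124 and 148 in KO, a log2 change of 3.63 ± 0.38 (adjusted p = 0.000873). For both genes the genotypes lay far apart. Mrpl27 was at 0.615 and 0.893 FPKM in Het and 16.7 and 15.3 in KO (3.28 ± 0.35 on the log2 scale, adjusted p = 0.000881). Mrpl12, the stalk protein that also binds the mitochondrial RNA polymerase, was at 3.72 and 2.53 FPKM in Het and 24.4 and 26.6 in KO (2.70 ± 0.35, adjusted p = 0.00188). Mrpl10, which anchors Mrpl12 in the stalk, behaved otherwise. It was at 35.9 and 23.3 FPKM in Het and 49.9 and 28.8 in KO, so the groups overlapped, and the adjusted p was 0.514. Mrpl22, of the exit tunnel, was at 21.1 and 46.6 FPKM in Het and 161 and 234 in KO (2.59 ± 0.41, adjusted p = 0.00407, and 0.0639 with no filter on low values). Mrpl32, which a protease trims after import before it joins the ribosome, had the highest KO level of the members. It was at 79.4 and 142 FPKM in Het and 382 and 467 in KO (1.98 ± 0.35, adjusted p = 0.00658).

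Of the large subunit proteins without a bacterial homologue 10 of 19 tested rose (median 1.35). Mrpl39 had the largest change of all members. It was at 2.57 and 5.48 FPKM in Het and at 62.2 and 72.8 in KO, a log2 change of 3.83 ± 0.38 (adjusted p = 0.000779). Mrps18a was at 3.81 and 1.84 FPKM in Het and 15.9 and 24.3 in KO (2.48 ± 0.41, adjusted p = 0.00487, and 0.0566 with no filter). Mrps30, a relative of Mrpl37, was at 2.57 and 2.01 FPKM in Het and 5.52 and 6.73 in KO. The groups were apart, but its adjusted p was 0.0578. Mrpl45, which sits at the exit tunnel by the inner membrane, was lower in both KO libraries, at 18.5 and 22.8 FPKM against 29.1 and 39.9 (log2 difference -0.70, adjusted p = 0.176). Mrpl44, which has a fold like that of RNase III, was at 30.9 and 38.1 FPKM in Het and 35.9 and 24.0 in KO, and the groups overlapped.

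Of the small subunit proteins 15 of 26 tested rose, 9 of 16 with a bacterial homologue (median 1.36) and 6 of 10 without (median 1.42). Mrps28 was at 12.3 and 18.1 FPKM in Het and at 104 and 155 in KO, an 8.01-fold difference of FPKM + 1 (adjusted p = 0.00114). Mrps31 was at 12.4 and 12.7 FPKM in Het and 67.0 and 121 in KO (2.75 ± 0.36, adjusted p = 0.00194). For both genes every KO library was far above every Het library. Mrps10 was at 0.440 and 0.458 FPKM in Het and 7.79 and 9.64 in KO (2.74 ± 0.33, adjusted p = 0.00133). Mrps7 was at 3.02 and 1.96 FPKM in Het and 14.6 and 20.9 in KO (2.42 ± 0.38, adjusted p = 0.00376). Mrps33, the member with the highest footprint level in FGO, was at 45.2 and 94.3 FPKM in Het and 251 and 505 in KO (2.43 ± 0.45, adjusted p = 0.00779, and 0.0883 with no filter). Its libraries differed by a similar ratio within each genotype, and the groups did not overlap. Mrps12, of the decoding centre, was at 3.32 and 3.43 FPKM in Het and 8.14 and 15.4 in KO (1.48 ± 0.40, adjusted p = 0.0338). That call was lost without KO library 2 (adjusted p = 0.323), under median scaling (0.0864), under quantile normalization (0.0928) and with no filter (0.118). The paralogs Mrps18b and Mrps18c, like Mrps18a, also rose in mRNA, Mrps18c by 2.26 on the log2 scale (adjusted p = 0.00376). Mrps18b was at 7.56 and 5.13 FPKM in Het and 19.8 and 19.2 in KO (adjusted p = 0.0199). For Mrps18b the call was lost with no filter on low values (0.0702) and in 3 of the 4 fits that left out a library.

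The members that changed least, among those of at least 10 FPKM that missed the threshold, were Mrps21, Mrpl21, Mrps27, Mrps23 and Mrpl44, with log2 changes from -0.22 to 0.09. Mrpl21 was at 108 and 118 FPKM in Het and 106 and 137 in KO, and Mrps21 at 52.1 and 60.7 in Het and 42.7 and 69.0 in KO. Their groups overlapped. Mrpl3, a core protein of the large subunit, had the lowest change of the members. It was at 55.8 and 53.2 FPKM in Het and at 34.5 and 30.7 in KO, both KO values below both Het values, a log2 difference of -0.73 ± 0.30 (adjusted p = 0.127). Under median scaling it passed the threshold (-1.14, adjusted p = 0.0437), as it did under quantile normalization (-1.03, adjusted p = 0.0444).

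The count of calls depends on how the libraries are scaled. Median scaling moved the median of all genes from 0.14 to -0.27, the calls over all genes from 1677 up and 55 down to 1018 and 841, and the members that rose from 39 to 23, with 1 that fell. Such a scaling shifts all genes alike and leaves the members' median 1.16 above that of all genes. That difference ran from 0.85 without KO library 2 to 1.45 without KO library 1. Without KO mRNA library 2 fewer members passed as risen, and so did a smaller share of all genes. Including low genes left 14 members that rose, where 3.58% of all genes then rose.

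**Figure D2:**
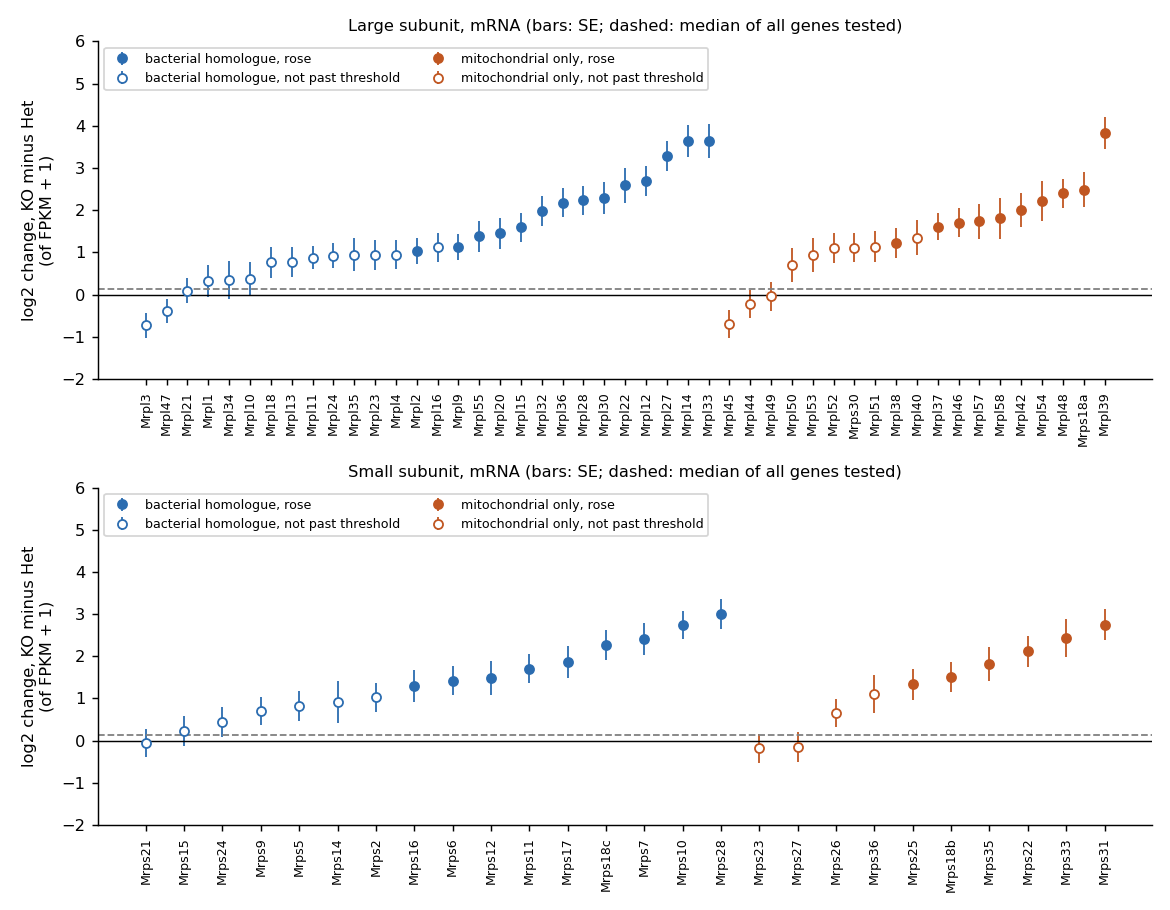
Log2 change of mRNA in Btg4 KO against Het (y axis, of FPKM + 1, with SE as bars) for the 73 members tested, by subunit and by whether a bacterial homologue exists. Filled points rose, open points did not pass the threshold, and the dashed line is the median of all genes at 0.14. The changes run from -0.73 for Mrpl3 to 3.83 for Mrpl39.

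Other genes of mitochondrial translation were compared in the same fit. Of 5 mitochondrial ribosomal proteins under other names all were tested and 2 rose, Chchd1 (2.90 ± 0.36, adjusted p = 0.00157) and Aurkaip1 (2.47 ± 0.42, adjusted p = 0.0056). Of 20 translation factors 16 were tested and 6 rose (median 0.87), led by Slirp, which binds mitochondrial mRNAs (3.50 ± 0.39, adjusted p = 0.000969), the release factor Mtrf1 (2.65 ± 0.35, adjusted p = 0.00203) and the recycling factor Mrrf (1.89 ± 0.35, adjusted p = 0.00774). Of 8 tested mitochondrial tRNA synthetases 2 rose, Rars2 and Yars2 (median 0.54). Of 19 tested assembly factors 5 rose (median 0.37), among them Mterf4 and Malsu1, and of 12 tested genes of mitochondrial transcription and DNA maintenance 2 rose, Lonp1 and Nrf1 (median 0.26). None of these genes fell. Over all genes tested 18.9% rose, with a median of 0.14. The shares were 40.0% of the ribosomal proteins under other names and 37.5% of the translation factors. They were 25.0% of the synthetases, 26.3% of the assembly factors and 16.7% of the transcription and maintenance genes, nearer that of all genes. For scale, 55 of 82 cytosolic ribosomal proteins (median 1.61) and 29 of 37 complex I subunits (median 1.98) rose. All these lists share the Het and KO libraries with the members, and the differences between lists were not tested.

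The second comparison asked whether footprints followed. In footprints 4 of 68 members tested rose in KO and 0 fell, that is 5.88%, where 3.21% of the 8526 genes tested rose and 0.328% fell. The median log2 change was 0.31, against 0.27 over all genes, and 41 members were higher and 27 lower. With 3 libraries a group, every KO library was above every Het library for 8 members and below for 2, where 16.8% of all genes were above and 7.69% below. The 4 that rose had also risen in mRNA, where 32 of the 39 risen members were tested in footprints. Of the 68 members 18 had a value above 0 in all 6 libraries, 9 were at 0 in every Het library and 8 in every KO library. The same counts over all genes are not given, so these are not read as a trait of the members.

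Mrps31 was at 5.30, 0 and 0 FPKM in Het footprints and at 81.6, 146 and 103 in KO. These values correspond to 2, 0 and 0 reads against 17, 43 and 31, where low values are whole multiples of the value of 1 read. Its log2 change was 5.87 ± 0.82 (adjusted p = 0.0202). Mrpl39 was at 10.9, 3.07 and 4.02 FPKM in Het and 73.6, 130 and 92.2 in KO (3.96 ± 0.56, adjusted p = 0.0202). Its KO mean was 16.4 times its Het mean in footprints and 16.8 times in mRNA. Mrpl32 was at 24.5, 20.6 and 18.0 FPKM in Het and 155, 121 and 170 in KO (2.76 ± 0.36, adjusted p = 0.0176). Its ratio of means was 7.07 in footprints and 3.83 in mRNA. Mrpl9, a large subunit protein with a bacterial homologue, was at 12.7, 16.7 and 16.4 FPKM in Het and 80.7, 139 and 54.8 in KO (2.41 ± 0.47, adjusted p = 0.0447). In each of the 4 genes every KO library was above every Het library.

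Another 4 members had every KO library above every Het library but missed the threshold, and 2, Mrpl1 and Mrpl16, had every KO library below. Mrpl22 was at 15.1, 0 and 0 FPKM in Het and 84.9, 73.6 and 85.5 in KO (5.02 ± 1.11, adjusted p = 0.0616, and 0.00962 without Het library 1). Mrps9 was at 24.7, 12.8 and 20.1 FPKM in Het and 60.1, 95.0 and 59.2 in KO (1.85 ± 0.44, adjusted p = 0.0789). Mrpl2 was at 40.1, 55.3 and 10.3 FPKM in Het and 87.4, 90.1 and 84.0 in KO (adjusted p = 0.253), and Mrpl19 was at most at 3.38 FPKM in any library (adjusted p = 0.366). These 4 differ in how far apart the groups lie. Mrpl1 was at 19.9, 15.8 and 32.1 FPKM in Het and 7.28, 8.00 and 9.61 in KO (-1.29 ± 0.50, adjusted p = 0.23), and Mrpl16 at 4.56, 8.97 and 5.87 in Het and 4.14, 2.93 and 0 in KO (adjusted p = 0.413). Without any 1 of the 3 KO libraries no member passed, and no gene of all those tested passed either. Mrps31 and Mrpl39 also missed the threshold without Het library 3 (adjusted p = 0.0609 and 0.0623), and Mrps31 with a pseudocount of 0.1 (0.0621). The Mrpl9 call held only in the fit as described and with the replicate block. It was lost under both other scalings (adjusted p = 0.142 and 0.0954), with a pseudocount of 0.1 (0.0521), with no filter (0.0603), with no trend (0.0678) and without any 1 library (0.0866 to 0.15).

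**Figure D3:**
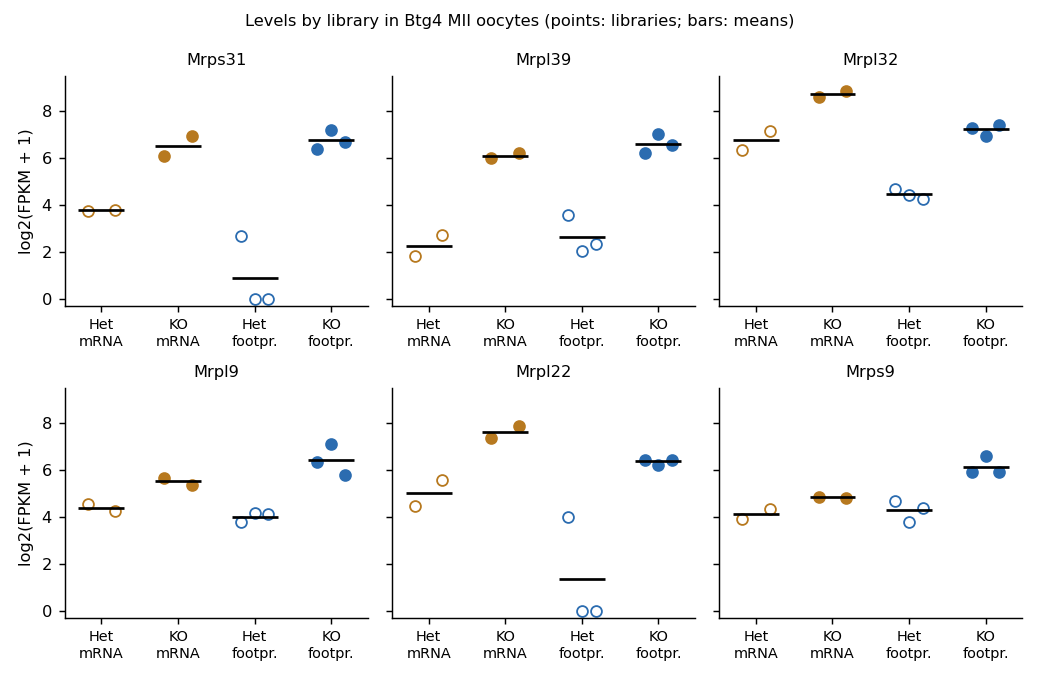
Levels (y axis, log2(FPKM + 1)) of 6 members in the 10 Btg4 libraries, Het as open and KO as filled points, mRNA in ochre and footprints in blue, with group means as bars. The 6 were picked from the 8 of 68 members tested in which all KO footprint libraries lie above all Het footprint libraries. This separation, held by 16.8% of all genes tested, is therefore given by the choice of panels. Mrps31 and Mrpl22 are at 0 in 2 of 3 Het footprint libraries.

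Of the 32 members that rose in mRNA and were tested in footprints 4 rose there (12.5%), as did 7.33% of the 1365 such genes. The footprint change was above 0 for 18 of these 32 members (56.3%) and for 66.6% of these genes. Among members that were higher but missed the threshold, Mrpl14 was at 0, 0 and 83.1 FPKM in Het and 29.3, 13.8 and 79.5 in KO (2.92 ± 1.77, adjusted p = 0.446), and Mrpl42, Mrpl27 and Mrps33 had log2 changes of 2.73, 2.39 and 2.07 (adjusted p = 0.44, 0.305 and 0.612). Others were lower. Mrps18b was at 58.0, 63.3 and 22.7 FPKM in Het footprints and at 30.6, 0 and 0 in KO (-3.83 ± 1.39, adjusted p = 0.209). Mrps18a was at 19.5, 0 and 16.8 FPKM in Het and at 0 in all 3 KO libraries, and passed as lower only without Het library 2 (adjusted p = 0.0475). Mrpl12 was at 6.27, 37.0 and 0 FPKM in Het and at 5.68, 0 and 0 in KO (adjusted p = 0.6). These 3 were lower at the mean in KO and did not pass in the fit with all libraries. Mrpl33 had 1 footprint library of 6 above 0, a Het library at 116 FPKM.

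Of members of at least 10 FPKM that missed the threshold, 5 had the smallest footprint changes. Mrpl24, which lies by the tunnel exit, was at 316, 321 and 189 FPKM in Het and 245, 376 and 222 in KO (0.03 ± 0.37). Mrpl44 was at 67.9, 77.6 and 65.0 FPKM in Het and 71.5, 66.8 and 81.6 in KO (0.06 ± 0.33). The groups overlap in both. Mrpl18, Mrpl53 and Mrps23 had log2 changes of -0.04 ± 0.82, 0.14 ± 0.63 and -0.16 ± 0.81, so changes of more than 2-fold in either direction lie within 2 SE for each of these 3. Mrpl3 was at 114, 162 and 51.3 FPKM in Het and 62.3, 78.9 and 93.3 in KO, which overlap (adjusted p = 0.762). Mrps14, of the head of the small subunit, had the highest footprint level of the members in both genotypes, at 738, 404 and 216 FPKM in Het and 629, 747 and 345 in KO.

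Footprint efficiency, footprints relative to mRNA, was compared between genotypes with an interaction term across the 10 libraries. Its mRNA side is the same libraries primed on poly(A), so the limit given for mRNA applies here too. No member of 63 passed (0 of 63), where 0.853% of 7382 genes rose and 0.447% fell (limma). The members' median was -0.59, against 0.24 over all genes, and 41 were lower and 22 higher. At an unadjusted p below 0.05 there were 11, of which Mrps31 was higher (3.12 ± 1.12, adjusted p = 0.24) and 10 were lower (15.9% of members tested), where 8.48% of all genes were higher and 5.53% lower at that threshold. The 10 include Mrps18a (-5.32 ± 1.65, adjusted p = 0.179), Mrps17 (-3.72 ± 1.15, adjusted p = 0.179) and Mrps10 (-3.69 ± 1.18, adjusted p = 0.189). Mrps10 and Mrps18a were at 0 in all KO footprint libraries. The efficiency of Mrps31 and Mrpl22 passed without Het footprint library 1, that of Mrps18a without Het footprint library 2, and those of Mrpl40 and Mrps18b without KO footprint library 1. In Het oocytes the level of footprints relative to mRNA was 0.41 at the median of 55 members and 0.37 over 6564 genes (log2 ratio). Among these 55 members, which have a level in both assays, it was lowest for Mrpl47 (-3.57), Mrpl21 (-2.98) and Mrpl42 (-2.92). Mrps21, Mrpl45 and Mrpl34, at 56.4, 34.5 and 27.2 FPKM in Het mRNA, were listed at 0 in all Het footprint libraries and have no ratio.

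The third comparison set single MII oocytes against single FGO. The labels tie no oocyte to an animal. A stage is therefore treated as 1 sample, without a test. The mean footprint level of 44 of 78 members was at least 2-fold lower in MII than in FGO (56.4%), where 31.8% of 10068 genes were, and 6 were at least 2-fold higher, where 25.8% of genes were. The median log2 ratio of MII to FGO, from mean FPKM + 1, was -1.12 for the members and -0.26 for all genes. It was -1.62 for the large subunit proteins found only in mitochondria and -1.04 for those with a bacterial homologue. Of the small subunit the medians were -1.36 and -1.18. The cytosolic ribosomal proteins had a median of -2.14 and complex I subunits one of -1.98.

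The value of 1 read differed between the stages. The value of 1 read was a median of 1.21 in FGO and 4.58 in MII oocytes, relative to the same reference oocyte, so a single read stands for a higher level in MII. Reads could be recovered for 67 of the 78 members. Their sum was 109 to 1438 reads per FGO and 11 to 227 per MII oocyte. Over all 11409 genes with recovered reads the totals overlapped widely. They had a median of 184441.5 per FGO (49061 to 953971) and 126287 per MII oocyte (33854 to 662456). An FGO had values above 0 for a median of 55 members (41 to 74), and an MII oocyte for 20 (9 to 46). A gene at 0 in an MII oocyte may therefore be below detection. The summed follicle cell markers also moved with stage, from a median of 28.2 FPKM in FGO (0.918 to 126) to 129 in MII oocytes (70.7 to 220), with 1 of the 15 at 0 in every FGO and 4 in every MII oocyte. The part of depth and of these markers in the members' ratios was not tested.

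Mrps33 had the highest level in FGO, with a lowest value of 42.8, a median of 338 and a highest of 893 FPKM. In MII oocytes it ran from 0 over a median of 0 to 537 FPKM, above 0 in 8 of 20. The means were 347 and 67.1 FPKM, a log2 ratio of -2.35, and -3.79 without MII oocytes 2 and 4. Mrps36 was next. It ran from 20.2 over 147 to 514 FPKM in FGO and from 0 over 22.0 to 226 in MII oocytes (log2 ratio -2.02). Mrpl33, with the next highest mean in FGO, was above 0 in 15 of 18 FGO (median 74.1, highest 338 FPKM) and in MII only in oocyte 4, at 153 FPKM, which is 1 read. Its log2 ratio of -3.81 became -6.92 without that oocyte. Mrps21 and Mrpl34 followed with FGO means of 105 and 93.1 FPKM and MII means of 20.5 and 39.5. These 5 were all lower in MII at the mean, and each overlapped between the stages.

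The lowest ratios, among members of at least 10 FPKM in a stage, were those of Mrpl51, Mrpl52, Mrpl33, Mrps6, Mrps18c, Mrps24, Mrps17, Mrpl54, Mrpl58 and Mrpl37. Mrpl51 was above 0 in 7 of 18 FGO, up to 97.4 FPKM, and at 0 in all 20 MII oocytes, as were Mrpl41 and Mrps30. Mrpl52 had a median of 16.7 and a highest value of 86.3 FPKM in FGO, and was above 0 in 1 MII oocyte, at 13.0. Mrps6 had a median of 33.3 FPKM in FGO and was above 0 in 2 MII oocytes. Mrps18c ran from 0 over 35.4 to 183 FPKM in FGO and was above 0 in 2 of 20 MII oocytes. Mrpl58, which frees stalled mitochondrial ribosomes, was above 0 in 17 FGO and 3 MII oocytes. Mrpl12 was above 0 in all 18 FGO (3.19, median 14.5, highest 49.1 FPKM) and in 5 MII oocytes (highest 21.2). Most MII values of these genes were 0, and apart from Mrpl51, Mrpl41 and Mrps30, which have none above 0, the MII mean rests on a few oocytes.

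Mrpl3, unlike most members, had a higher mean in MII. It ran from 0 over a median of 0.835 to 25.9 FPKM in FGO, where it was above 0 in 9 of 18. In MII oocytes it was above 0 in 20 of 20 and ran from 4.09 over 36.5 to 72.0 FPKM. MII was the higher in 96.9% of all pairs of 1 FGO and 1 MII oocyte. The log2 ratio of the means was 3.19, and 2.19 with each oocyte scaled by the median of its values above 0. Mrpl24 was above 0 in all 20 MII oocytes too, from 24.5 over 94.2 to 207 FPKM, against 0 over 23.9 to 116 in FGO (log2 ratio 1.48). Mrpl10 (4.80 FPKM at the mean in FGO and 20.8 in MII), Mrpl2 (log2 ratio 1.84, 10.4 FPKM in MII), Mrps2 (1.48 and 7.59) and Mrpl44 (7.78 and 17.7) were the other 4 at least 2-fold higher. Under this median scaling only Mrpl3 of the 6 stayed at least 2-fold higher, and the ratio of Mrpl44 turned to -0.12. The scaling lowered the members' median ratio from -1.12 to -2.19, but relative to all genes only from -0.85 to -1.07. The value of 1 read is higher in MII, and its part in this shift was not tested. Mrps14 was at similar means, 66.1 FPKM in FGO and 77.6 in MII, and also above 0 in 20 of 20 MII oocytes. Mrpl24 and Mrps14 were the members with the highest footprint level in single MII oocytes and in Btg4 Het MII oocytes respectively.

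**Figure D4:**
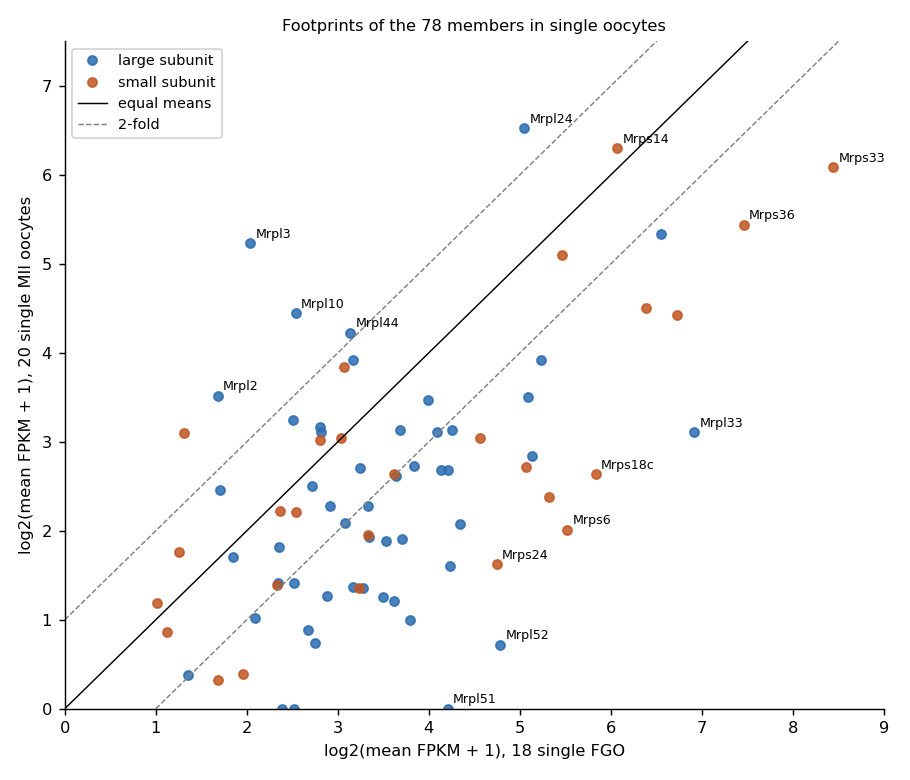
Mean footprint level of the 78 members in 18 single FGO (x axis) and 20 single MII oocytes (y axis), both as log2(mean FPKM + 1), coloured by subunit. The solid line marks equal means and dashed lines 2-fold differences. Most members lie below the solid line, and Mrpl3, Mrpl24, Mrpl10, Mrpl2 and Mrpl44 are labelled above the upper dashed line.

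Poly(A) tails were compared last. In FGO 65 members had a tail length, with a median of 56.8 nt against 54.1 nt over 6353 genes. Of the 65 members 19 lay above the interquartile range of all genes (45.2 to 63.2 nt) and 16 below it, near the share that any interquartile range leaves on each side. Median lengths were 51.4 nt for the large subunit proteins with a bacterial homologue and 59.1 nt for those without, and 57.8 and 58.3 nt in the small subunit. The longest tails belonged to Mrps21 (101.74 nt), Mrps33 (101.34 nt), Mrpl11 (100.72 nt), Mrpl20 (100.46 nt) and Mrpl37 (99.87 nt), all in the top 2% of genes. The shortest belonged to Mrpl2 (29.47 nt), Mrps18a (34.35 nt), Mrpl22 (35.43 nt), Mrpl51 (35.63 nt) and Mrps5 (38.59 nt). Each value is from 1 library, and the number of reads behind it is unknown.

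**Figure D5:**
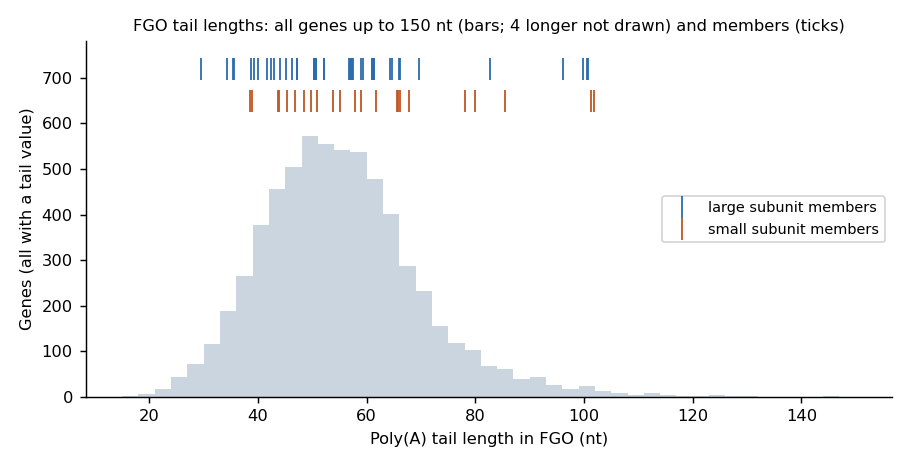
Poly(A) tail length in FGO (x axis, nt) of all genes with a value (bars, number of genes) and of the 65 members (ticks, by subunit). Members run from 29.47 nt to 101.74 nt, across the range of most genes.

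No member had a tail value in wild-type MII or in Btg4 Het MII oocytes, where 229 and 598 genes had one. In KO library 1, with 867 genes, only Mrpl40 had a value, 32.2 nt, against 59.35 nt in FGO. In KO library 2, with 1416 genes, Mrps33 was at 16.6 nt, Mrpl18 at 44.4 nt, Mrpl14 at 46.3 nt, Mrpl39 at 67.7 nt and Mrpl32 at 73.0 nt. Set beside FGO, Mrps33 was at 101.34 nt there and at 16.6 nt in KO library 2, and Mrpl18 at 66.08 and 44.4 nt. Mrpl14, Mrpl39 and Mrpl32 were longer in KO library 2 than their FGO values of 41.56, 46.19 and 61.03 nt. These set 1 library against 1 library and were not tested. Over the 1356 genes with both values 64.2% were shorter in KO library 2. The KO minus Het comparison of tails could not be made for any member, since none had a value in Het. In the authors' deposited table of merged KO libraries 10 members have a value, from 16.58 nt (Mrps33 and Mrpl28) to 65.95 nt (Mrpl32). The authors' deposited 16.58 nt, identical for Mrps33 and Mrpl28, lies below the shortest FGO tail of any gene (16.96 nt). The number of reads behind it is unknown. Of the 10 in the authors' deposited table, 7 were shorter than in FGO, where 62.8% of 2067 genes were. In the authors' deposited table the 7 include Mrpl28 (61.32 nt in FGO), Mrpl48 (56.79 nt in FGO and 17.84 nt merged), Mrps25 (55.00 and 22.89 nt) and Mrpl4 (52.19 and 27.77 nt).

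The measures were set against each other as a description, across genes, which are not independent. Over 73 members the MII to FGO ratio in wild type and the mRNA change in Btg4 KO had a Spearman rho of -0.34, and over 7739 genes of -0.56. These 2 measures come from different libraries. Changes in mRNA and in footprints of Btg4 KO had a rho of 0.06 over 63 members and 0.19 over 7382 genes. FGO tail length and the MII to FGO ratio had a rho of -0.29 over 65 members and -0.37 over 5730 genes. FGO tail length and the mRNA change had one of -0.11 over 63 members and 0.18 over 5808 genes. Over the 10 Btg4 libraries the non-member genes whose log2(FPKM + 1) followed the members' mean most closely were Cisd1, Spry1 and Sirpb1c, with Pearson's r of 0.973, 0.973 and 0.971. They were picked for the highest r of all genes, over libraries of both assays and both genotypes. A relation to the members was not tested.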

How the data were processed

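Ribosome footprints and polyadenylated mRNA of mouse oocytes were deposited by the authors as FPKM per gene, and poly(A) tail lengths as nucleotides per gene, a score in which 0 stands for no value. The submitters' processing notes list Cufflinks 2.2.1, STAR 2.5.3a, Bowtie2 2.2.2, Trim Galore 0.4.2 and cutadapt 1.14, and name hg19 and mm9 as builds without roles. For the tail caller, the method is not given in the sources used. Of 105 samples in the labels, 53 had values, and 52 were not analysed here. Samples were grouped by their labels. After 231 exact repeats were dropped, both FPKM tables held 20756 genes.

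KO was compared with Het with limma 3.58.1 in R 4.3.3 (eBayes with trend, two-sided) on log2(FPKM + 1), which understates the change of low genes, keeping genes whose mean reached 1 FPKM, with Benjamini-Hochberg adjustment over all genes and a threshold of 0.05. Footprint efficiency was the interaction of genotype and assay over 10 libraries and takes a gene's spread as equal in both assays. The fits were run on simulated data with large changes added only to genes of higher level. How they perform on members of low level was not tested. Single oocytes were described by mean FPKM, with 2-fold as the size named. Labels number the libraries. In footprints those of the same number deviated together (r = 0.255, 0.422 and 0.162). The main fits do not pair libraries, and a replicate block by number was run as an alternative. The members, lists and alternatives were chosen with earlier results of these data known. Members named were the 12 largest calls per assay with groups apart, the 5 least changed of at least 10 FPKM, the 10 lowest and 5 highest of the single oocyte ratios, the 5 longest and 5 shortest tails, the 5 highest levels and members of known role. Others named in a count of 5 or fewer, and Mrpl3, Mrpl45, Mrpl22, Mrpl32, Mrps9, Mrps17, Mrps14 and Mrpl42 where they fall outside these, were named after their values were seen. Low footprint values were read as whole multiples of the value of 1 read (within 0.03 reads, below 12 reads). This gave reads for 67 members in single oocytes and 36 in the Btg4 libraries, from Python 3.11.15. Depth is unknown for mRNA and tails. Promoters are from RefSeq, GRCm38.p6, and coordinates of the files were not used. Alternatives were another pseudocount, filter and scaling, a replicate block, no trend, and leaving out libraries or oocytes.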

Additional observations from a re-analysis of the deposited data

How the results depend on the processing

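In mRNA the number of members that rose was 14 with no filter on low values, 23 under median scaling, 25 under quantile normalization and 59 with the replicate block, where 3.58%, 11.5%, 12.5% and 34.2% of all genes rose. The mRNA libraries share only a number, with 2 pairs (r = 0.627). With 2 libraries a group the correlation for different numbers is the same with the sign reversed (-0.627). The number that fell was 1 under each scaling (Mrpl3) and 2 with the block (Mrpl3 and Mrpl45), where 9.49%, 7.87% and 17.5% of all genes fell. Their median log2 change was 1.53 with a pseudocount of 0.1, 1.13 with no filter, 0.89 under median scaling and 0.95 under quantile normalization. Leaving out 1 library each gave 22 to 41 members that rose, 0 that fell and medians of 1.09 to 1.47. The lone library of a group is then assumed to vary like the other group.

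In footprints 2 members rose with a pseudocount of 0.1. Their median turned to -0.14 under median scaling and -0.025 under quantile normalization, and, relative to all genes, to -0.047 without KO footprint replicate 1 (up to 0.44 without Het footprint replicate 1). Leaving out 1 library gave 0 to 4 that rose, 0 to 1 that fell and medians of 0.09 to 0.90. The replicate block left 4, the same genes. For efficiency, leaving out 1 library gave 0 to 2 in each direction and medians of -0.88 to -0.18, and the block left 0. With a pseudocount of 0.1 the median was -0.12.

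In single oocytes the median log2 ratio was -2.54 with medians over oocytes and -2.19 under median scaling (by values above 0). Relative to the median of all genes it was -0.85 as described, -2.54 with medians over oocytes and -1.07 under median scaling. With a filter at 10 FPKM it was -1.94 relative to all genes. The number at least 2-fold lower was 29 of the 42 members left by that filter and 64 of 78 under median scaling. The number higher was 1 under median scaling, where Mrpl44 turned to -0.12. Shares of all genes under these settings are not given, so these counts are not read as particular to the members. Leaving out 1 oocyte gave medians of -1.32 to -1.06, 41 to 49 lower and 5 to 8 higher. The cause of these shifts was not tested, except that a stricter filter leaves fewer members. The alternatives for tail lengths in KO against Het were not run, since no member had a value in Het. Few member reads per MII oocyte and unknown depth of mRNA and tails limit what could be detected.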
